A study of Oryza sativa with 9 samples.

Results

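Seeds of 2 rice (Oryza sativa) lines with different amino acid changes in the RNA-binding protein RBP-P were compared directly with each other, without the wild type. The line P1MH carries the change G401S and the line P3MH carries A252T. The comparison used the 3 P1MH and the 3 P3MH libraries, which are 6 of the 9 libraries of the study. Of the 55986 gene loci in the deposited table, the 15816 whose RPKM averaged at least 1 across these 6 libraries were tested. RPKM counts reads by exon length in kilobases and adjusts them for how many reads the library had, so levels of different genes can be compared per length.

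RNA came from whole developing seeds without hulls, taken 10 to 14 days after flowering. The growth chambers of all plants were held at 27 °C, and a day had 12 h light and 12 h dark. The series' design text calls the 3 libraries of a genotype biological repeats, and the labels do not say how many plants or seeds went into each. Every P1MH library carries G401S and every P3MH library carries A252T, so each change is represented by 1 line. Any other difference between the lines cannot be told apart from the difference between the amino acid changes. In whole seeds, fewer cells of a type and less RNA per cell cannot be told apart either.

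RBP-P belongs to the proteins that bind the messenger RNAs of rice seed storage proteins. In the rice endosperm, messenger RNAs of glutelins and of prolamines are carried to different parts of the endoplasmic reticulum (ER), where the proteins are made. Prolamines stay in protein bodies formed from the ER, while glutelins travel on to storage vacuoles. Changes in proteins of this RNA transport are known to misplace storage protein messages in the cell, which a measurement of RNA levels in whole seeds does not see.

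Very few loci passed a test of the difference between the lines, with 3 libraries each. Of 15816 loci tested, 3 passed limma's moderated test at a false discovery rate of 0.05, which is 0.019% of the loci tested. Of these, 2 were higher in P1MH (0.0126%) and 1 was lower (0.00632%). At an unadjusted p under 0.05, limma passed 1582 loci (10%), with 852 higher in P1MH (5.39%) and 730 lower (4.62%). The count of 3 depended on single libraries. Leaving out P1MH replicate 3 raised it to 131, and leaving out P1MH replicate 1 or P3MH replicate 2 took it to 0. It was 5 without P1MH replicate 2, 1 without P3MH replicate 1 and 3 without P3MH replicate 3.

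The 3 libraries of each line lay entirely above or below those of the other at 2433 loci, 15.4% of the loci tested. P1MH lay above P3MH at 1404 of these (8.88%) and below it at 1029 (6.51%). The median difference over all loci was 0.03 on the log2 scale, P1MH minus P3MH of log2(RPKM + 1), and all differences below are on that scale. A typical locus was measured with a 95% interval of 0.45 to either side of its difference. The whole interval lay between -1 and 1 for 13964 loci (88.3%), so a 2-fold difference on this scale lay outside the interval of most loci. A difference of at least 1 in either direction was seen at 203 loci (1.28%), of which 3 passed the test.

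The libraries had 5865007 to 6522918 reads in P1MH and 6062155 to 7379192 in P3MH, as worked out from the steps between RPKM values. At 1 kilobase of exon, 3 reads correspond to 0.407 to 0.512 RPKM in the 6 libraries. The 10 highest loci held 37.8 to 39.6% of all RPKM in P1MH and 33.7 to 37.2% in P3MH. Across loci, the libraries correlated at Pearson's r of 0.951 to 0.963 within P1MH and 0.966 to 0.968 within P3MH, and at 0.941 to 0.966 between the lines. P1MH replicates 2 and 3 each correlated more closely with P3MH replicate 1 (0.966 and 0.965) than with any library of their own line. The libraries of a line thus did not all group together, as the map of pairwise correlations shows.

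**Figure D1:**
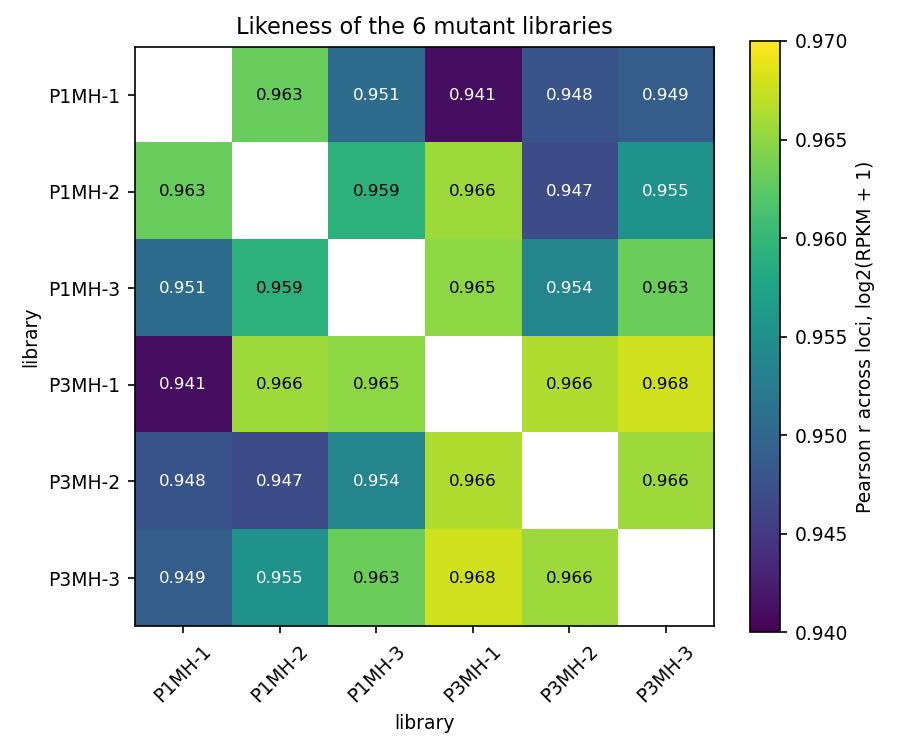
Pearson correlation of log2(RPKM + 1) across the 15816 tested loci for each pair of the 6 mutant libraries. P1MH replicate 1 and P3MH replicate 1 are the least alike pair (0.941), while P1MH replicates 2 and 3 reach 0.966 and 0.965 with P3MH replicate 1.

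The locus with the smallest p, LOC_Os01g16140, lies on chromosome 1 from 9114002 to 9114253 on the plus strand, in the coordinates of the deposited table, which does not annotate it. Its levels were 9.47, 9.83 and 8.52 RPKM in P1MH and 28.2, 32.1 and 22.6 RPKM in P3MH. The lowest P3MH library was above the highest P1MH library, and all P1MH libraries were close to one another. The locus is short, and how many reads these values rest on was not worked out. The mean was 9.27 ± 0.678 RPKM in P1MH and 27.6 ± 4.77 RPKM in P3MH (SD, n = 3 each), 2.98-fold higher in P3MH. The log2 difference was -1.47 (SE 0.17, 95% interval -1.83 to -1.10, limma adjusted p = 0.0289). The WT libraries, given as a description, stood at 9.90, 7.94 and 7.0 RPKM, near the P1MH libraries.

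RBBI3.3 (LOC_Os01g03360) also passed and was higher in P1MH. It encodes a Bowman-Birk inhibitor, a small protein that blocks trypsin-like proteases, and lies on the minus strand of chromosome 1 from 1353629 to 1354802. Its levels were 24, 17.1 and 30.8 RPKM in P1MH and 4.60, 4.64 and 7.50 RPKM in P3MH. The lowest P1MH library was more than double the highest P3MH library. The means were 24 ± 6.84 and 5.58 ± 1.67 RPKM (SD, n = 3 each), 4.30-fold higher in P1MH, with a log2 difference of 1.92 (SE 0.24, 95% interval 1.4 to 2.44, limma adjusted p = 0.0307). WT varied widely, at 36.5, 16.4 and 7.09 RPKM, and overlapped with both lines. Bowman-Birk inhibitor genes stand in clusters of like sequence, and how reads shared between them were counted is not given in the sources used here.

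LOC_Os06g07960, on the plus strand of chromosome 6 from 3823413 to 3827346, was listed at 0 in all P3MH libraries. In P1MH its levels were 4.92, 2.57 and 2.65 RPKM, and in WT 2.06, 1.64 and 0.611 RPKM. It was thus seen in every library except those of P3MH. The fitted log2 difference was 2.09 (limma adjusted p = 0.0289), a value that depends on the added 1 RPKM. The shortest exon length that gives whole reads in the P1MH libraries, 1386 bases, corresponds to 40, 23 and 24 reads there. WT replicate 1 does not give whole reads at that length, so the true length is likely greater and the reads more. With that length 3 reads, the limit set by a count of 0, correspond to 0.293 to 0.357 RPKM in P3MH. At a greater length the limit would be lower. The limit covers counting error only. No other tested locus was at 0 in all libraries of 1 line and above 0 in all of the other. The count was 1 locus at 0 in P3MH (0.00632% of those tested) and 0 loci at 0 in P1MH.

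On the log2(RPKM + 1) scale, the mean of P1MH was nearer to WT than that of P3MH at all 3 loci. In RPKM it was nearer at 2, and P3MH was nearer at LOC_Os06g07960 (means of 3.38 RPKM in P1MH, 0 in P3MH and 1.44 in WT). WT did not enter the test, and the distances to WT were not tested. In 6 of 15 alternatives, in which a setting was changed or a library left out, none of the 3 passed. LOC_Os01g16140 passed in 9 of 15 alternatives, with limma adjusted p from 0.00402 to 0.167. RBBI3.3 passed in 6 of 15 (limma adjusted p 0.00451 to 0.238) and LOC_Os06g07960 in 5 of 14 (limma adjusted p 0.00188 to 0.167).

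**Figure D2:**
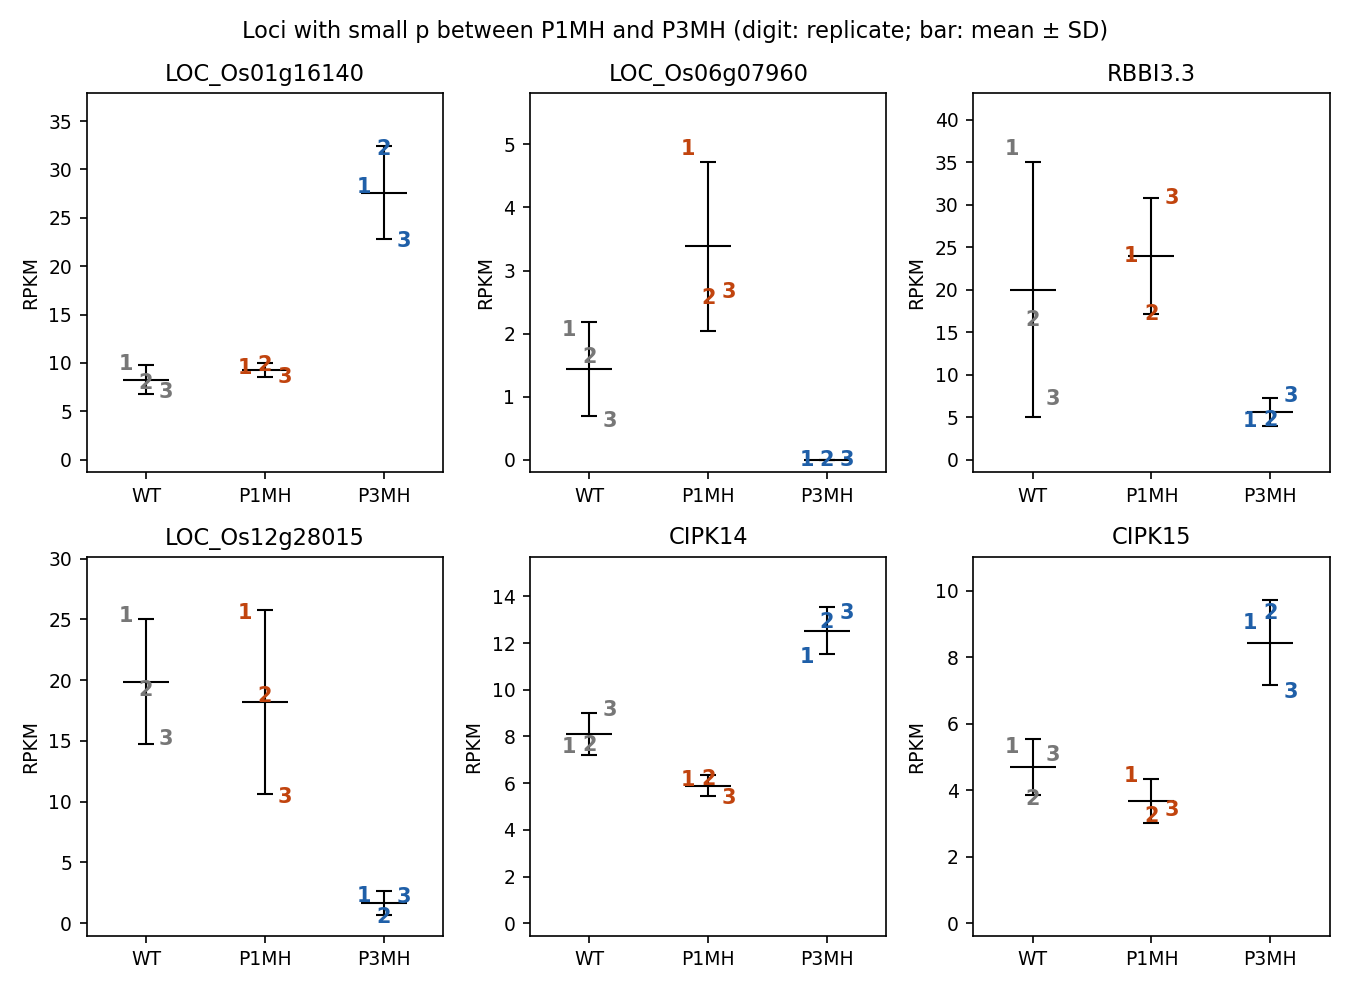
RPKM of 6 loci in the WT, P1MH and P3MH libraries (digits mark the replicate, the long bar is the mean and the whiskers are 1 SD, n = 3 each), with each vertical axis on its own scale. The upper 3 loci passed limma's test, and at each the P1MH libraries lie apart from the P3MH libraries, with LOC_Os06g07960 at 0 in all of P3MH. LOC_Os12g28015, CIPK14 and CIPK15 did not pass (limma adjusted p = 0.0832, 0.133 and 0.205).

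Of the next loci by p, taken only where the lines did not overlap and the mean was at least 5 RPKM, 13 had higher P1MH values. Their log2 differences ran from 0.71 to 2.85, and none passed (limma adjusted p from 0.0832 to 0.261). LOC_Os12g28015 had the greatest distance among them, with 25.5, 18.7 and 10.4 RPKM in P1MH, 2.24, 0.531 and 2.18 RPKM in P3MH and 25.3, 19.2 and 15.1 RPKM in WT. Its lowest P1MH library was several-fold above its highest P3MH library, and WT stood with P1MH. Its log2 difference was 2.85 (95% interval 2.02 to 3.69, limma adjusted p = 0.0832). It lies on chromosome 12 from 16519711 to 16520331. By the means, P1MH was nearer to WT at 3 of the 13 loci and P3MH at 10, on the log2 scale and in RPKM alike.

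Of these 13, 2 had a checked gene name. HMGR3 encodes a 3-hydroxy-3-methylglutaryl-CoA reductase, the enzyme that makes mevalonate for sterols and other isoprenoids. Its levels were 18.6, 18.4 and 21.8 RPKM in P1MH and 11.2, 10.9 and 12.7 RPKM in P3MH (log2 difference 0.71, limma adjusted p = 0.252). MADS18 encodes a MADS-box transcription factor of the APETALA1 group and was at 8.29, 8.49 and 7.35 RPKM in P1MH and 4.71, 3.70 and 4.31 RPKM in P3MH (log2 difference 0.79, limma adjusted p = 0.261). For both genes every P1MH library was above every P3MH library, and the WT libraries of MADS18 (5.62, 5.28 and 6.16 RPKM) lay between the lines.

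In the other direction, 14 loci had lower P1MH values, with log2 differences from -1.69 to -0.83 and limma adjusted p from 0.126 to 0.239. CIPK14 and CIPK15 were the named loci among them. Both encode protein kinases activated by calcineurin B-like calcium sensors. CIPK14 stood at 6.13, 6.19 and 5.38 RPKM in P1MH and 11.4, 12.9 and 13.3 RPKM in P3MH (log2 difference -0.97, 95% interval -1.32 to -0.62, limma adjusted p = 0.133). CIPK15 stood at 4.42, 3.21 and 3.40 RPKM in P1MH and 9.02, 9.33 and 6.96 RPKM in P3MH (log2 difference -1.01, 95% interval -1.43 to -0.60, limma adjusted p = 0.205). The lines did not overlap at either gene, and WT lay between the line means for CIPK14 and for CIPK15, nearer to P1MH. The genes lie on duplicated ends of chromosomes 12 and 11 and are nearly identical in sequence, so their values may share reads and are not independent of each other.

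On the log2 scale, the mean of P1MH was nearer to WT at 6 of the 14 loci and that of P3MH at 8, while in RPKM each was nearer at 7. LOC_Os05g01810 was at 8.39, 8.46 and 5.34 RPKM in P1MH, 15.6, 24 and 20.2 RPKM in P3MH and 20.5, 19.8 and 18.8 RPKM in WT (log2 difference -1.32, limma adjusted p = 0.126). Here P3MH and WT stood together and P1MH below both. At 3 loci a single library, P1MH replicate 3, stood between the other libraries of its line and P3MH. LOC_Os12g22970 was at 37.0, 42.2 and 90.3 RPKM in P1MH against 183, 194 and 138 RPKM in P3MH. LOC_Os11g02080 was at 57.5, 50.8 and 108 RPKM against 186, 173 and 143 RPKM. LOC_Os02g40784 was at 5.22, 4.67 and 11.2 RPKM against 18.6, 21.6 and 15.3 RPKM. With P1MH replicate 3 left out these loci passed (limma adjusted p = 0.000359, 0.00198 and 0.00113), among 131 loci that passed in that setting. These 3 loci were singled out by the same library that was then left out. Their passing thus follows in part from how they were picked and is no further support.

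Some loci separated the lines while both lay far from WT on the same side. LOC_Os06g37140 was at 69.4, 55.0 and 60.6 RPKM in P1MH, 30.8, 32.5 and 41.0 RPKM in P3MH and 6.15, 7.70 and 6.66 RPKM in WT. LOC_Os04g28120 was at 10.5, 8.29 and 7.89 RPKM in P1MH, 15.9, 16.8 and 21.9 RPKM in P3MH and 77.9, 63.7 and 78.1 RPKM in WT. In each case P1MH was the line farther from WT. Their limma adjusted p between the lines were 0.225 and 0.205, so neither difference passed.

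Named genes of storage, starch, seed tissues and growth were then followed by group, with no member of any group passing limma's test over all loci. The chart of gene groups shows each member's difference. Among storage proteins, 7 glutelins had a median log2 difference of 0.11, against 0.03 for all loci. P1MH lay above P3MH without overlap at 4 of them, beside 8.88% of all loci, and below at none. GluA-1, a precursor of the glutelin acidic and basic chains, was at 20680, 24403 and 22303 RPKM in P1MH and 17330, 13845 and 16685 RPKM in P3MH (log2 difference 0.50, 95% interval 0.02 to 0.97, limma adjusted p = 0.483). GluA-2 was at 16309, 18219 and 17592 RPKM against 13712, 10858 and 13143 RPKM (log2 difference 0.47, limma adjusted p = 0.495).

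The other glutelins were closer together. GluA-3, the highest of the list, averaged 29592 ± 762 RPKM in P1MH and 27452 ± 830 RPKM in P3MH, and GluB-5 averaged 25100 ± 665 and 23159 ± 404 RPKM (SD, n = 3 each). At both genes the lines did not overlap, yet the log2 differences were 0.11 and 0.12 (limma adjusted p = 0.898 and 0.887). GluB-2, GluB-4 and GluD-1 overlapped between the lines, with log2 differences of -0.04, -0.24 and -0.23. Under quantile normalization the glutelin median was 0, with 2 members above 0 and 3 below. That scaling gives loci of equal rank equal values. GluA-3 and GluB-5 had a difference of 0 there by this construction, so the median of 0 does not test the glutelin difference. Glutelins of a subfamily are near-identical, and how the authors' counting split their reads is not given in the sources used here.

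The prolamine RP6, of the storage proteins kept in ER-derived protein bodies, was at 4073, 6144 and 6827 RPKM in P1MH and 3273, 2162 and 3826 RPKM in P3MH. The lowest P1MH library was just above the highest P3MH library. The log2 difference was 0.89 (SE 0.28, 95% interval 0.28 to 1.49, limma adjusted p = 0.377). Other prolamines had no checked name and are not given. The 4 seed albumins all had positive differences (median 0.44), and RA16 alone did not overlap, at 360, 264 and 380 RPKM in P1MH and 231, 180 and 234 RPKM in P3MH (log2 difference 0.63, limma adjusted p = 0.403). That was 1 of 4, beside 8.88% of all loci with P1MH higher without overlap. Positive differences were seen at 8546 of all 15816 loci. RAG1, another albumin, overlapped between the lines, at 111, 84.6 and 130 RPKM in P1MH and 77.1, 101 and 64.0 RPKM in P3MH, while WT was at 0.287, 0.0869 and 0.276 RPKM.

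Genes of protein folding in the ER mostly had lower values in P1MH. Of 10 measured, 8 had negative differences and 2 positive ones, with a median of -0.39. Over all 15816 loci, 7270 differences were negative and 8546 positive. P1MH lay below P3MH without overlap at 4 (PDIL1-1, PDIL1-4, PDIL2-3 and PDIL5-1) beside 6.51% of all loci, and above at none. Of the 10, 3 had an unadjusted limma p under 0.05 with P1MH lower, beside 4.62% of all loci. No member passed over all loci. PDIL1-1, the protein disulfide isomerase that forms disulfide bonds in proglutelins, was at 1603, 1559 and 1242 RPKM in P1MH and 2607, 3170 and 1906 RPKM in P3MH. All P1MH libraries were below all P3MH libraries, and WT (2366, 2408 and 2370 RPKM) lay within the range of P3MH. The log2 difference was -0.78 (SE 0.23, 95% interval -1.30 to -0.27, limma adjusted p = 0.368).

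PDIL1-4, another disulfide isomerase, was at 284, 354 and 292 RPKM in P1MH and 550, 469 and 454 RPKM in P3MH (log2 difference -0.66, 95% interval -1.08 to -0.25, limma adjusted p = 0.354). Here too WT (411, 555 and 614 RPKM) stood with P3MH. BiP1, the ER lumen chaperone of the HSP70 family, was at 1526, 1149 and 1196 RPKM in P1MH and 1649, 2587 and 1429 RPKM in P3MH, where the lines overlapped (log2 difference -0.51, limma adjusted p = 0.532). bZIP50, a transcription factor of the ER stress response, was at 38.4, 19.5 and 16.8 RPKM in P1MH and 26.6, 57.1 and 38.8 RPKM in P3MH, and also overlapped. P3MH replicate 2 was the highest of the 6 libraries for PDIL1-1, BiP1 and bZIP50. PDIL2-1 and PDIL5-2 were near the same level in both lines, with log2 differences of 0.05 (95% interval -0.29 to 0.39) and 0.01 (95% interval -0.31 to 0.34).

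**Figure D3:**
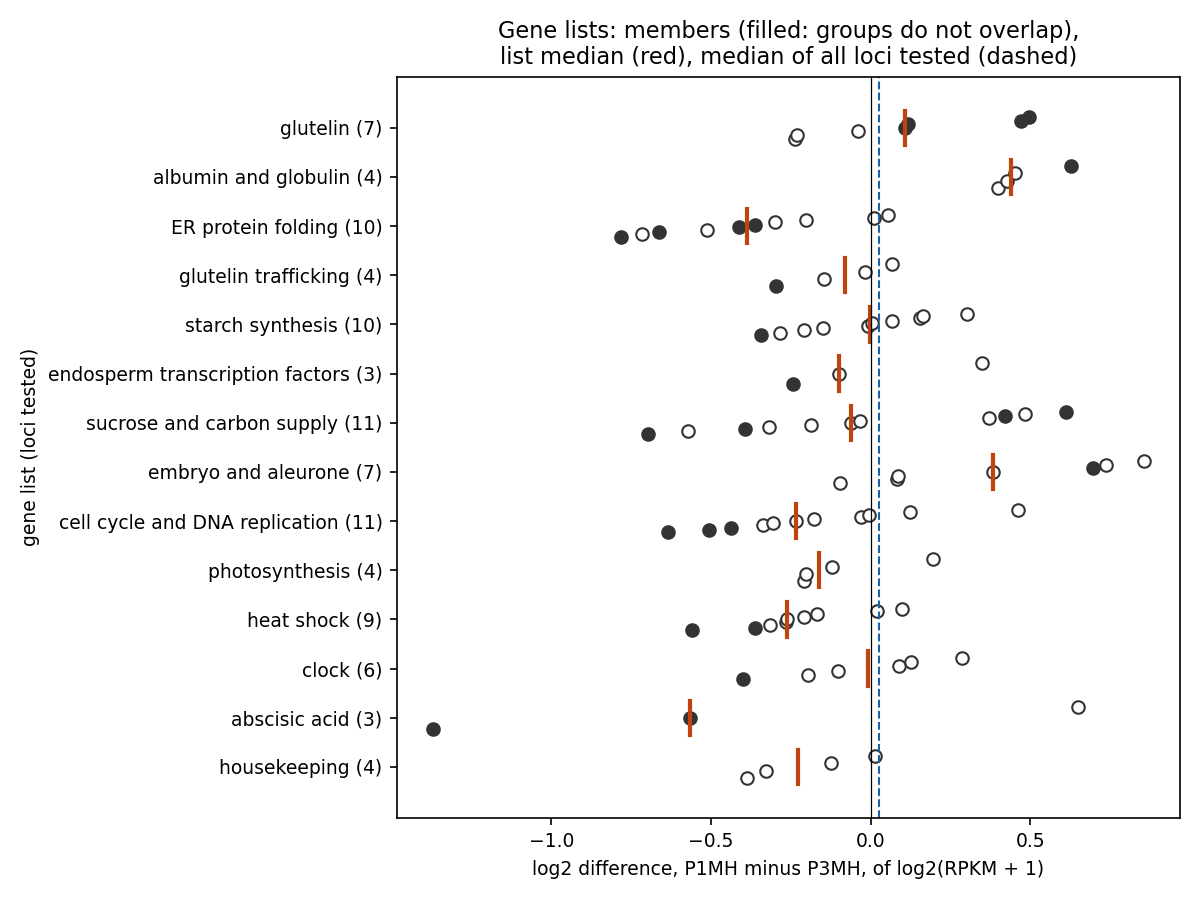
Log2 difference, P1MH minus P3MH, of each tested member of the gene groups with at least 3 tested members (circles, filled where the 3 libraries of each line do not overlap), with the group's median as a red bar and the median of all 15816 loci (0.03) as a dashed line. ER protein folding genes lie mostly left of 0 (median -0.39) and albumins right of it (median 0.44), while starch synthesis genes lie on both sides (median -0.0017).

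Downstream of the ER, the 4 glutelin trafficking genes had a median of -0.08. VPE1, the vacuolar enzyme that cuts proglutelin into its mature chains, was at 104, 122 and 102 RPKM in P1MH and 128, 146 and 130 RPKM in P3MH, without overlap (log2 difference -0.30, limma adjusted p = 0.589). This made 1 of 4, beside 6.51% of all loci with P1MH lower without overlap. RAB5A, a small GTPase of vesicle transport, had a log2 difference of -0.02 (95% interval -0.41 to 0.38) and its activator VPS9A one of 0.07 (95% interval -0.37 to 0.50). The lines overlapped at both genes.

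Starch synthesis genes had a median of -0.0017 over 10 members, with 5 above 0 and 5 below. AGPS2, a small subunit of ADP-glucose pyrophosphorylase, was alone among these 10 in not overlapping, beside 6.51% of all loci with P1MH lower. It was at 1240, 1427 and 1231 RPKM in P1MH and 1667, 1660 and 1611 RPKM in P3MH (log2 difference -0.34, limma adjusted p = 0.584). Starch loci without a checked name are not counted here. Among them LOC_Os01g63270, 1 of the 13 loci above, was higher in P1MH without overlap (log2 difference 0.83, limma adjusted p = 0.225). Wx, the granule-bound starch synthase that makes amylose, was at 711 ± 44.0 RPKM in P1MH and 638 ± 88.3 RPKM in P3MH (SD, n = 3 each; log2 difference 0.16, 95% interval -0.26 to 0.59). The isoamylase ISA1 had a log2 difference of -0.01 (95% interval -0.43 to 0.42). Of 3 endosperm transcription factors, MADS6 did not overlap, with 2.96, 3.55 and 3.03 RPKM in P1MH and 3.66, 4.43 and 3.75 RPKM in P3MH (log2 difference -0.24, limma adjusted p = 0.705). This made 1 of 3, beside 6.51% of all loci with P1MH lower without overlap. NF-YB1, an endosperm regulator of sucrose loading, overlapped (log2 difference -0.10, 95% interval -0.49 to 0.29).

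Of 11 genes of sucrose and carbon supply, 4 did not overlap, beside 15.4% of all loci, and the median was -0.06. Of the 4, 2 lay higher in P1MH and 2 lower. PPDKB, a pyruvate phosphate dikinase active in the filling endosperm, was at 1398, 1805 and 1307 RPKM in P1MH and 2214, 2892 and 2202 RPKM in P3MH. All P1MH libraries were below all P3MH libraries, and WT (2441, 2535 and 2429 RPKM) stood with P3MH. The log2 difference was -0.70 (95% interval -1.17 to -0.22, limma adjusted p = 0.377). The sugar exporter SWEET14 also lay lower in P1MH (log2 difference -0.39, limma adjusted p = 0.483). The sucrose importer SUT1 (log2 difference 0.42, limma adjusted p = 0.472) and the cell-wall invertase CIN2 (log2 difference 0.61, limma adjusted p = 0.415) lay higher. None of these 4 passed.

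Genes of embryo and aleurone, tissues that a whole seed holds beside the starchy endosperm, had a median of 0.38 over 7 tested members. OLE18, an oleosin that coats oil bodies, was at 698, 506 and 795 RPKM in P1MH and 476, 382 and 362 RPKM in P3MH. It was the member whose lines did not overlap (log2 difference 0.70, SE 0.22, limma adjusted p = 0.389). That was 1 of 7, beside 8.88% of all loci with P1MH higher. RAB16A, a dehydrin induced by abscisic acid, was at 227, 120 and 179 RPKM in P1MH and 75.1, 130 and 82.6 RPKM in P3MH, with P3MH replicate 2 inside the range of P1MH (log2 difference 0.86, limma adjusted p = 0.390). Em, a late embryogenesis protein, was at 168, 82.1 and 85.3 RPKM in P1MH and 71.9, 195 and 69.9 RPKM in P3MH. P1MH replicate 1 and P3MH replicate 2 were the high libraries for Em and for LEA3, each in its own line, and the lines overlapped.

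The 8 genes of this group with a checked name held 0.236, 0.160 and 0.222% of all RPKM in P1MH and 0.138, 0.185 and 0.122% in P3MH. The ranges overlapped, with P3MH replicate 2 above P1MH replicate 2. The genes of photosynthesis, which would mark green pericarp, held 0.0643, 0.0460 and 0.0556% in P1MH and 0.0482, 0.0668 and 0.0494% in P3MH. None of the 4 members of that group separated the lines, beside 15.4% of all loci that did. The part of tissue shares in any difference above was not tested. The glutelins, which mark starchy endosperm, held 22.8 to 25.0% in P1MH and 21.4 to 23.1% in P3MH.

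Abscisic acid drives the dehydrins and much of seed maturation, and ABA 8'-hydroxylases start its breakdown. ABA8OX1 was at 2.03, 0.613 and 0.790 RPKM in P1MH and 3.24, 5.29 and 4.67 RPKM in P3MH. All P1MH libraries were below all P3MH libraries, and WT was at 3.37, 2.32 and 2.43 RPKM. The log2 difference was -1.37 (SE 0.27, 95% interval -1.97 to -0.78, limma adjusted p = 0.205), so it did not pass. ABA8OX2 was at 4.5, 4.93 and 4.88 RPKM in P1MH and 7.72, 6.98 and 7.95 RPKM in P3MH (log2 difference -0.57, 95% interval -0.93 to -0.20, limma adjusted p = 0.358). WT stood above both lines, at 14.0, 9.95 and 8.54 RPKM.

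The third hydroxylase gene, ABA8OX3, was below the filter at 0, 0 and 0.0792 RPKM in P1MH and 0.399, 0.256 and 0.0700 RPKM in P3MH, and was not tested. NCED3, which makes the precursor of abscisic acid, was also below the filter, at 0.830, 0.927 and 0.631 RPKM in P1MH and 0.520, 0.494 and 0.152 RPKM in P3MH. Its lines did not overlap. bZIP23, a transcription factor of the abscisic acid response, was at 4.85, 4.91 and 1.79 RPKM in P1MH and 1.58, 1.85 and 2.40 RPKM in P3MH, where P1MH replicate 3 fell among the P3MH libraries (log2 difference 0.65, limma adjusted p = 0.497). RAmy3E, an alpha-amylase, was at 34.4, 27.9 and 37.3 RPKM in P1MH and 14.6, 23.6 and 21.2 RPKM in P3MH, without overlap (log2 difference 0.73, 95% interval 0.30 to 1.17, limma adjusted p = 0.343). RAmy1A and RAmy3A, amylases of germination, were listed at 0 in every library.

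**Figure D4:**
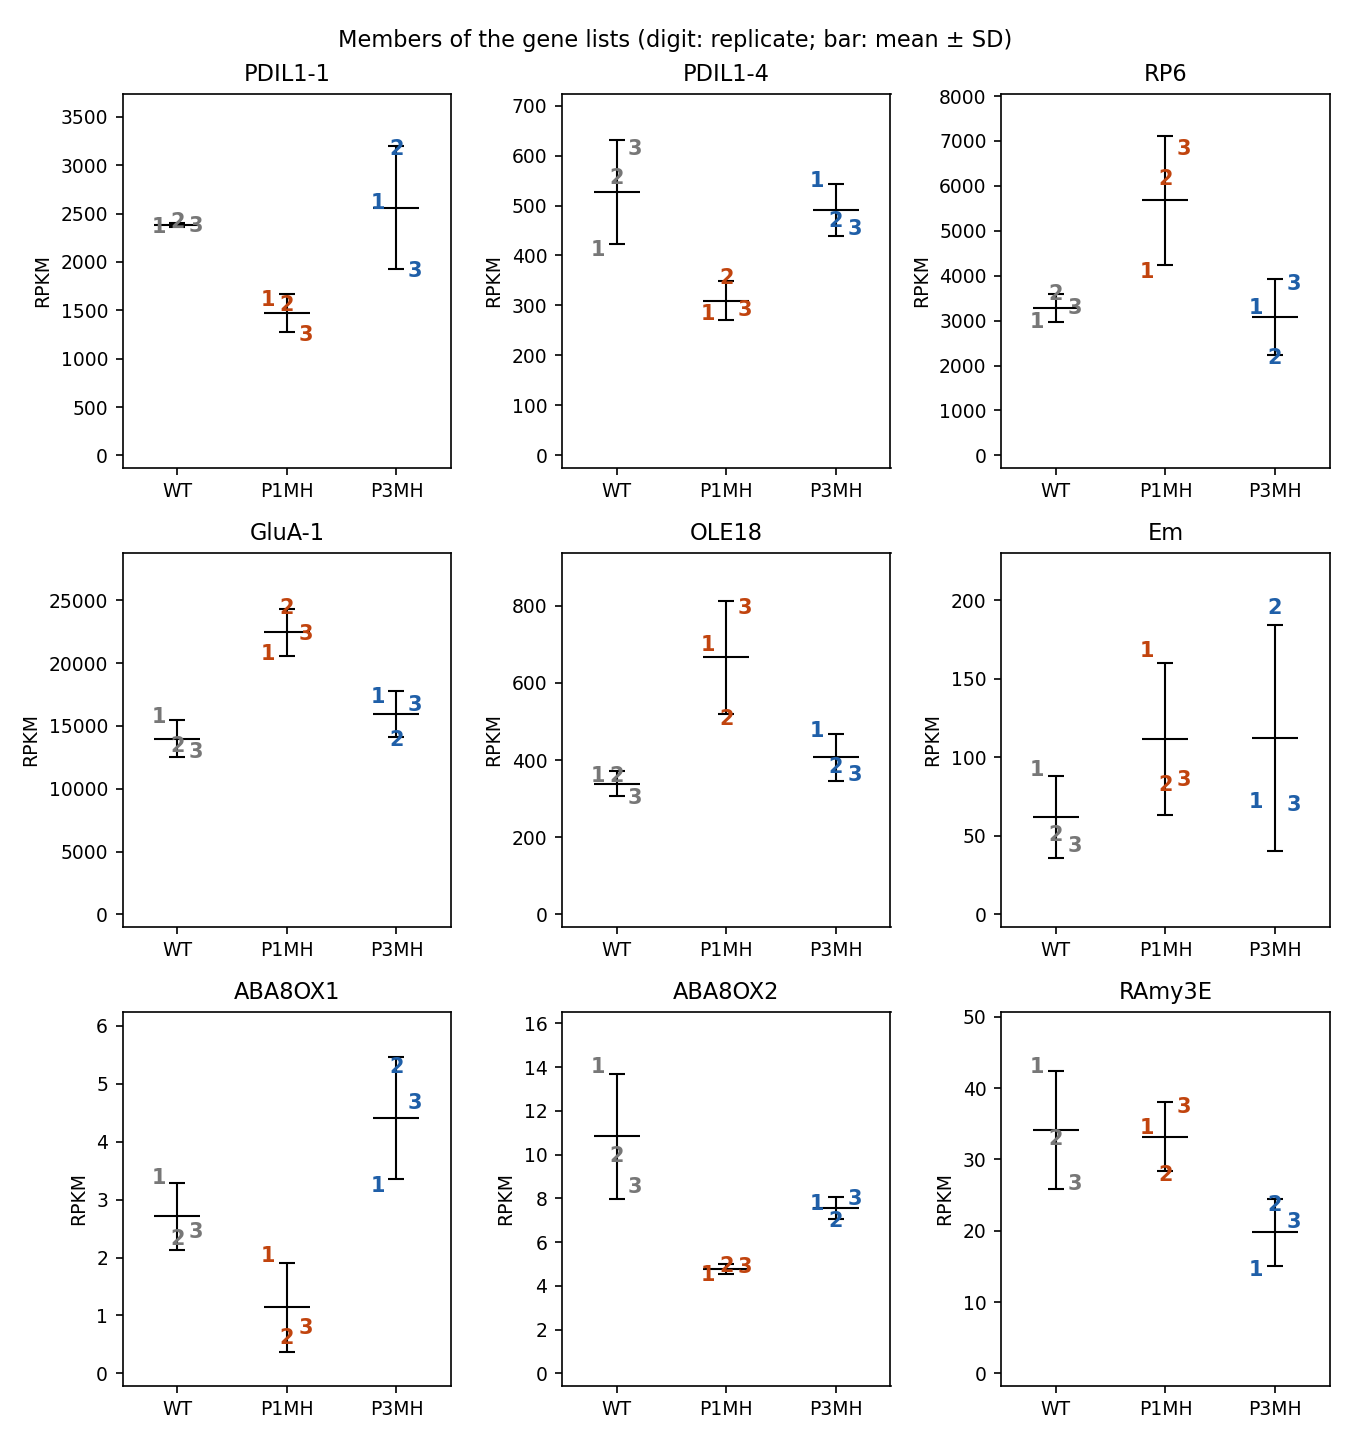
RPKM of 9 members of the gene groups in the WT, P1MH and P3MH libraries (digits mark the replicate, the long bar is the mean and the whiskers are 1 SD, n = 3 each), with each vertical axis on its own scale. None passed limma's test between the lines. PDIL1-1, PDIL1-4, ABA8OX1 and ABA8OX2 show P1MH below P3MH without overlap, RP6, GluA-1, OLE18 and RAmy3E show it above, and Em overlaps.

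Cell cycle and DNA replication genes had a median of -0.23 over 11 tested members. Of these 9 had negative differences, beside 7270 of all 15816 loci. P1MH lay below P3MH without overlap at MCM2, MCM3 and MCM5, subunits of the helicase that unwinds DNA for replication. These were 3 of the 11, beside 6.51% of all loci. MCM2 was at 2.54, 4.67 and 3.15 RPKM in P1MH and 6.91, 4.72 and 5.90 RPKM in P3MH, with P1MH replicate 2 and P3MH replicate 2 nearly touching (log2 difference -0.64, limma adjusted p = 0.415). PCNA, the sliding clamp of DNA polymerase, averaged 6.91 ± 1.36 RPKM in P1MH and 8.90 ± 0.636 RPKM in P3MH (SD, n = 3 each), with a log2 difference of -0.34 (95% interval -0.73 to 0.06, limma adjusted p = 0.572). The WT mean was higher than that of both lines for all 4 genes, at 14.3 RPKM for PCNA and 9.52 RPKM for MCM2. For MCM2, WT replicate 1 (6.68 RPKM) was below P3MH replicate 1 (6.91 RPKM).

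Heat shock genes had a median of -0.26 over 9 tested members. P1MH lay below P3MH without overlap at 2 of them, beside 6.51% of all loci. HSP18.1, a small heat shock protein, did not overlap, with 0.870, 0.948 and 1.41 RPKM in P1MH and 1.89, 2.86 and 1.52 RPKM in P3MH (log2 difference -0.56, limma adjusted p = 0.470). HSP81-1, a cytosolic HSP90 chaperone, averaged 70.7 ± 6.23 and 91.3 ± 9.71 RPKM (SD, n = 3 each) without overlap (log2 difference -0.36, limma adjusted p = 0.497). The circadian clock genes had a median of -0.01 over 6 members. PRR95, a pseudo-response regulator, was the clock gene without overlap, at 51.7, 60.7 and 56.2 RPKM in P1MH and 69.8, 82.8 and 71.2 RPKM in P3MH (log2 difference -0.40, limma adjusted p = 0.449). This made 1 of 6, beside 6.51% of all loci with P1MH lower. The 4 housekeeping genes all overlapped, beside 15.4% of all loci without overlap. Their median was -0.23, beside -0.23 for the cell cycle genes, with 3 differences below 0 and 1 above.

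Medians were compared under median-ratio rescaling, quantile normalization and scaling without the 50 highest loci. Those of the ER folding, cell cycle, heat shock and abscisic acid groups stayed below 0. So did those of the housekeeping group (-0.27, -0.09 and -0.17) and of the photosynthesis, glutelin trafficking and sucrose groups. The medians of the albumin and embryo groups and the difference of the single gene RP6 stayed above 0. The abscisic acid group held 3 tested genes, 2 with negative differences and 1 with a positive one. The signs of the starch, transcription factor and clock medians changed with the scaling.

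A further set of named genes was picked after their values were seen, from loci with small unadjusted p. None passed. P1MH was higher without overlap at PM19L1, a membrane protein of the AWPM-19 family (6.10 ± 1.16 against 3.14 ± 0.543 RPKM, SD, n = 3 each; log2 difference 0.77, limma adjusted p = 0.318), and at MFT2, a MOTHER OF FT AND TFL1 homologue expressed in seeds (7.35 ± 2.0 against 3.81 ± 0.670 RPKM; log2 difference 0.78, limma adjusted p = 0.355). It was lower without overlap at TPP3, a trehalose-6-phosphate phosphatase (22.8 ± 5.70 against 36.5 ± 1.91 RPKM; log2 difference -0.68, limma adjusted p = 0.335). It was also lower at DAD1, a subunit of the ER complex that attaches sugar chains to proteins (57.2 ± 7.84 against 85.4 ± 4.64 RPKM; log2 difference -0.58, limma adjusted p = 0.358). The set also held MADS55, ARD and FBA1, lower without overlap (log2 differences -1.44, -1.12 and -0.73, limma adjusted p = 0.205, 0.330 and 0.358). MADS55 averaged only 0.267 RPKM in P1MH and 2.51 RPKM in P3MH. Higher without overlap were NRAMP3, GER2, RR6 and HSFC2B (log2 differences 0.72, 0.78, 0.85 and 0.59, limma adjusted p from 0.351 to 0.360).

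RBP-P itself (LOC_Os01g16090, minus strand of chromosome 1 from 9063968 to 9066787) was at 10.9, 10.4 and 7.04 RPKM in P1MH and 8.71, 11.9 and 7.87 RPKM in P3MH. The ranges overlapped almost fully. The log2 difference was -0.01 (95% interval -0.47 to 0.45, limma adjusted p = 0.993). The transcript level does not show which amino acid change a library carries.

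LOC_Os01g16140, the called locus that was lower in P1MH, starts 47.2 kilobases past the end of RBP-P, with 4 tested loci between them. The 5 tested loci before RBP-P and the 4 between it and LOC_Os01g16140 had limma adjusted p of 0.488 or more. LOC_Os01g16040 differed most among these, at 266 ± 87.7 RPKM in P1MH and 176 ± 34.0 RPKM in P3MH (SD, n = 3 each), and its lines overlapped (log2 difference 0.56, limma adjusted p = 0.488). Within 1 megabase of RBP-P, 113 loci were tested and 19 did not overlap (16.8%), 11 higher and 8 lower in P1MH, beside 15.4% of all loci tested. By chromosome, that share was lowest on chromosome 8, at 139 of 1038 loci (13.4%), and highest on chromosome 5, at 231 of 1365 loci.

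**Figure D5:**
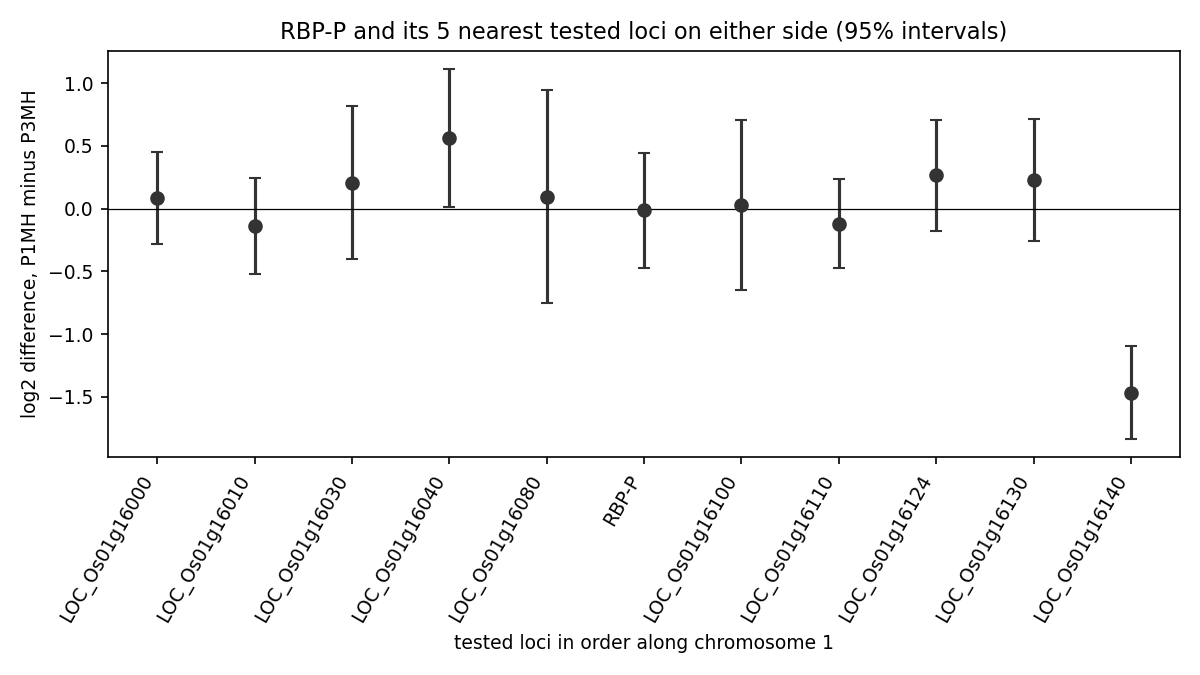
Log2 difference, P1MH minus P3MH, with limma's 95% interval, of RBP-P and its 5 nearest tested loci on either side, in their order along chromosome 1. RBP-P lies at -0.01 and LOC_Os01g16140 at -1.47, while the loci between them have intervals that include 0.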

How the data were processed

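The authors deposited RPKM values for 55986 gene loci in 9 libraries, per the file headers, with coordinates and without gene names. Per the labels' protocols, a ScriptSeq v2 kit made the libraries from total RNA. Not given in the sources used here are the aligner, the counting tool and the build of the coordinates. The table's columns matched the labels, and 0 columns of values were unused.

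The 3 P1MH and 3 P3MH libraries were compared with limma 3.58.1 in R 4.3.3 (mean-variance trend, robust moderation, 2-sided) on log2(RPKM + 1), for loci with a mean of at least 1 RPKM. Benjamini-Hochberg adjustment ran over all 15816 loci at 0.05. This scale understates differences of low genes. An exact permutation test of 3 against 3 cannot go below p = 0.1. Replicate numbers are not said to mark a shared batch, so no block was used. Same-numbered libraries did not deviate together.

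Loci were named by rule: those past the threshold, up to 15 per direction in all with the next ones having lines that do not overlap and a mean of at least 5 RPKM, RBP-P with 5 neighbours on either side, and in each group the 3 highest members and that with the smallest p. Other members were named after their values were seen. The members, groups and tests were chosen with earlier results of these data known, and the abscisic acid group was added after the table was opened. The table holds no names, so 191 loci were matched by hand to the RefSeq genes of the assembly ASM3414082v1, and 120 names were checked by chromosome, a span ratio of 0.8 to 1.25 and neighbouring genes. At least 5 neighbours and 20% of those within 150000 bases had to match in distance (within 2000 bases) and span (within 5%). The 20% was set, and several names were corrected, after values were seen. Loci without a checked name stayed out of the groups. Library totals came from the commonest spacing of the RPKM values. Limits at a count of 0 are 3 reads. Names were checked with pandas 2.3.3 and numpy 2.4.6 and figures drawn with matplotlib 3.10.9, in Python 3.11.15.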

Additional observations from a re-analysis of the deposited data

How the results depend on the processing

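The count of 3 loci past limma's threshold moved with nearly every choice. It was 5 with all 9 libraries in 1 fit, 0 with median-ratio rescaling (1622 loci at an unadjusted p under 0.05), 1 with quantile normalization, 0 with no filter on low values (2227 unadjusted), 1 with a pseudocount of 0.1 and 0 without trend and robust moderation (1588 unadjusted). It was 3 when scaled without the 50 highest loci and 2 with a mean of at least 5 RPKM. The cause was not tested. With the replicate block it was 5, including the same 3 loci, but same-numbered libraries correlated at -0.31, -0.19 and 0.04 in their deviations from the line means, so the numbers give no pairing. Differently numbered libraries correlated at -0.10 to 0.29. The highest were P1MH replicate 2 with P3MH replicate 1 (0.29) and P1MH replicate 1 with P3MH replicate 2 (0.25). Leaving out 1 library gave 0 to 131 loci: 0 without P1MH replicate 1 (1258 unadjusted), 5 without P1MH replicate 2, 131 without P1MH replicate 3 (84 higher and 47 lower), 1 without P3MH replicate 1, 0 without P3MH replicate 2 (1105 unadjusted) and 3 without P3MH replicate 3. Of 97 named loci, 83 kept their side of the threshold under all alternatives that could be run for them, and no called difference changed sign. LOC_Os06g07960 falls below the filter of 5 RPKM, and gave no value there. At 0.407 to 0.512 RPKM for 3 reads at 1 kilobase, differences of loci near 1 RPKM rest on few reads.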
